A study of Homo sapiens with 16 samples.

Results

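The 5 small noncoding RNAs of RNA polymerase III described here at single-nucleotide resolution are 7SK (RN7SK), the paired 7SL genes RN7SL1 and RN7SL2, RMRP and RPPH1. A position belonged to a gene when the deposited tables gave it that gene's symbol, so the many pseudogene copies of 7SK and 7SL were left out. The 5 genes held 1225 of the 719918 distinct positions listed in the series, of which 248 were uridines (U) and 977 other bases. Every listed base matched the GENCODE transcript.

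The study mapped reverse-transcription stops in polyadenylated RNA of HEK293T, a human embryonic kidney line, and of HCT116, a human colorectal carcinoma line. CMC is a carbodiimide that leaves an adduct on pseudouridine (Ψ), the isomer of uridine, at which reverse transcriptase stops. Some libraries were also digested with Terminator, an exonuclease that degrades RNA with a 5′ monophosphate. The knockdown line HCT116-shDKC1 carries a short hairpin against DKC1, the gene of dyskerin, the catalytic subunit of the H/ACA ribonucleoproteins that guide pseudouridylation. There were 8 groups of 2 replicates, 16 libraries in all. Untreated RNA (CMC-), RNA given CMC (CMC+) and RNA given both agents were each sequenced from wild-type HEK293T and from wild-type HCT116. The knockdown line has 2 groups, untreated and given both agents. The labels do not say whether replicates were separate cultures, so p-values measure only the spread between these libraries. The knockdown libraries analysed here come from 1 hairpin line.

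7SK scaffolds a particle in which HEXIM proteins hold the kinase P-TEFb inactive, with LARP7 and MEPCE protecting the ends of the RNA. 7SL is the RNA of the signal recognition particle, which brings ribosomes with secretory proteins to the endoplasmic reticulum. RPPH1 is the catalytic RNA of RNase P, which removes the 5′ leader of transfer RNA precursors, and RMRP is its relative in RNase MRP, which cuts ribosomal RNA precursors. None of these transcripts is made with a poly(A) tail, and how they came into poly(A)-selected libraries was not tested. A uridine of 7SK numbered 250 in RefSeq has been described as a dyskerin-dependent pseudouridine. RefSeq starts 7SK 1 base earlier than the GENCODE transcript, so that uridine is U249 in the numbering used here.

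Coordinates are on hg38 and nucleotides are counted from the 5′ end of the GENCODE transcript, each a noncoding exon. RN7SK spans chr6:52995621-52995948 on the plus strand, and RN7SL1 chr14:49586580-49586878 on the plus strand. On the minus strand lie RN7SL2 at chr14:49862550-49862849, RPPH1 at chr14:20343075-20343407 and RMRP at chr9:35657754-35658017. The windows below are 31 bases of these transcripts around uridines called higher in the tests below, with those named in each label in capitals. Other called uridines in these windows stay in lower case: U245 and U247 of 7SK and U21 and U24 of RMRP. U111 and U202 of 7SK were called too and are not shown. The 7SK window covers nucleotides 232 to 262 (chr6:52995852-52995882) with U246 and U249. The 7SL window is centred on U142 and the RMRP windows on U36, U64 (with U57) and U121, while that of RPPH1 is centred on U21.
7SK U246 and U249: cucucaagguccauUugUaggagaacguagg
7SL1 U142: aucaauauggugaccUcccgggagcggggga
RMRP U36: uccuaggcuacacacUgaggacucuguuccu
RMRP U57 and U64: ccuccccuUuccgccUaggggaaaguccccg
RMRP U121: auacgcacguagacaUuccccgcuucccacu
RPPH1 U21: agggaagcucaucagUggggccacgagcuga

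U249 of 7SK lies in UGUAG. The pattern UNUAA or UNUAG, with the third base as the tested uridine on the RNA strand, is the sequence preference known of the synthase PUS7, and it held 1.22% of the 219918 uridines listed in the series. The 5 transcripts contained it at 1 position of 7SK, 2 each of RN7SL1 and RN7SL2, 1 of RMRP and none of RPPH1. Among the other matches, RMRP U205 stopped 3.23% and 2.41% of reads with CMC and Terminator in HCT116, and U87 of both 7SL genes was listed in no Terminator table of either wild-type line. GUUCNANNC, the pattern of the synthase TRUB1, was in none of the 5 transcripts, against 0.139% of all listed uridines.

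RN7SL1 and RN7SL2 were identical at 295 of 299 aligned nucleotides (98.7%) and differed, RN7SL1 base first, by C52U, U53G, U69C and G275A. The 31-base window of U142 is the same in both genes. Of the listed positions, 93.4% in RN7SL1, 93.3% in RN7SL2 and 61.8% in RN7SK shared their window with another symbol, against 0 of 239 in RMRP and 0 of 186 in RPPH1. Values of the 2 7SL genes are therefore close to 1 measurement written under 2 names. Symbols starting RN7SL or RN7SK other than the members held a further 2419 and 1017 positions.

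Library totals behind the authors' RPM ran from 8653041 to 31261783 reads, lowest in the HCT116 tables without Terminator. The same HCT116 CMC- libraries had totals of 27272112 and 31261783 in the Terminator tables and of 8940353 and 10230136 in those without. Their covering reads at messenger RNA positions with whole counts were equal (median ratio 1.0). The totals are thus no measure of depth between the 2 kinds of table, and RPM cannot be compared between them. DKC1 was thinly covered: the median covering reads of its listed positions in CMC- were 12 and 14 in HCT116 and 5.5 and 2 in HCT116-shDKC1, over 1 to 3 positions that were not the same in every table, so the knockdown could not be measured here. Keratins KRT8, KRT18 and KRT19 were listed at 107 to 400 positions in the HCT116 and knockdown tables and at 0 or 1 in HEK293T, and VIM at 384 and 369 in HEK293T and 0 in both others; CDH17 of HCT116 was at 0 everywhere and PAX2 of HEK293T was at 0 in HEK293T. In the HCT116 CMC- libraries, the covering reads of RN7SL1 in the tables without Terminator were 0.337 and 0.384 times those in the tables with it. For RN7SK the ratios were 0.513 and 0.705, and for RMRP 0.991 and 0.996. Repeated RNAs, 7SK included, were thus not counted alike in both kinds of table. Tests of CMC alone in HCT116 therefore used only CMC- values of the tables without Terminator.

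A stop percent below is stop reads over covering reads at the base. A log2 change compares stop reads per covering read between groups (± SE, edgeR's quasi-likelihood test). The SE is the log2 change divided by the square root of the test's F statistic, and the p-values do not follow from it. It can be too small: at U249 of 7SK in HEK293T, with both agents against CMC-, it was 0.09, where DESeq2 gave 0.46. A position was called at a Benjamini-Hochberg adjusted p under 0.05, over all tested positions of the series, with a fold of at least 2. Every one of the 4972 member entries over the 10 tables had a treated stop percent not below its control. A rise against CMC- is therefore fixed by the listing, and its size is selected too. Entries held at least 5 treated stop reads and at least 1 in CMC-. In HCT116 with CMC and Terminator, 9659 of all 9660 tested uridines had a log2 change above 0. The p-values against CMC- do not allow for this selection, so a call there marks only a large change among listed positions. Of the 248 listed uridines, 29 were tested in HEK293T, 53 in the Terminator tables of HCT116 and its knockdown and 56 in the HCT116 tables without Terminator, the rest being too shallow or absent from 1 or more tables.

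The first question was where the combined treatment marked these RNAs. With CMC and Terminator, stops at U249 and U246 of 7SK rose in HEK293T, HCT116 and HCT116-shDKC1, and U36 of RMRP rose in the same 3 comparisons. Over the 5 RNAs, 15 distinct uridines were called in 1 or more comparisons: 6 of 7SK, 6 of RMRP, 1 each of RN7SL1 and RN7SL2 (the same window) and 1 of RPPH1.

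As a group, the uridines of the 5 RNAs were called no more often than all uridines of the series. In HEK293T, 4 of 29 tested member uridines (13.8%) were called higher with CMC and Terminator than in CMC-, against 17.8% of all tested uridines, and their median log2 change was 0.42 against 0.64. In HCT116 the count was 12 of 53 (22.6%) against 27.0% of all uridines, with medians of 0.61 and 0.70. In HCT116-shDKC1 it was 10 of 53 (18.9%) against 21.7%, with medians of 0.52 and 0.62. Other bases of the members were called at 9 of 78 (11.5%), 12 of 105 (11.4%) and 11 of 105 (10.5%) positions in HEK293T, HCT116 and the knockdown, against 8.76%, 23.5% and 18.2% of all tested other bases. The counts of uridines depend on the scaling: with stop reads scaled to library totals they were 10, 1 and 2, and with TMM 1 in each line. Without CMC- replicate 2 or treated replicate 2 the HEK293T count fell to 1. The calls were unequally spread: 7SK held 5 of 9 tested uridines in HCT116 and again 5 of 9 in the knockdown, RMRP 5 of 10 in each, and the 2 7SL genes 2 of 32 in HCT116 and 0 of 32 in the knockdown.

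**Figure D1:**
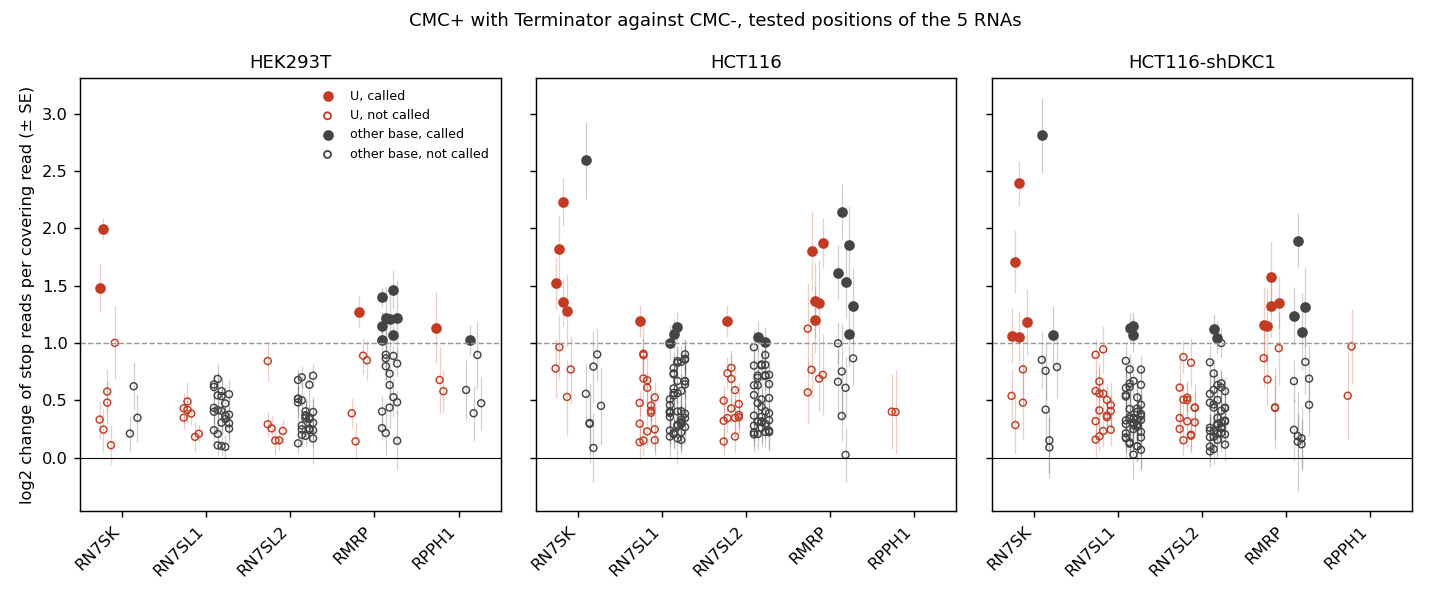
The log2 change (± SE) of stop reads per covering read, CMC+ with Terminator against CMC-, at each tested position of the 5 RNAs (x axis) in 3 lines (panels), red for U and grey for other bases, filled where called; the dashed line is a change of 1. In 7SK the highest U (U249, 2.00, 2.23 and 2.40) stands above the other U in every panel, and the 7SL genes stay close to or below 1.

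U249 of 7SK gave the largest log2 change of any tested member uridine in all 3 Terminator comparisons. In HEK293T its stop percent was 5.43% and 4.90% in the CMC- libraries, 12.3% and 10.3% with CMC, and 21.2% and 20.4% with CMC and Terminator. No libraries of different treatment overlapped. Within a replicate, the order against CMC- was fixed by the listing. The order of both agents over CMC alone was not fixed, and it was the same in both replicates. These values rest on 14.2 of 261 and 14.7 of 300 reads without CMC, where fractions come from the authors' counting, and on 41.7 of 197 and 52.0 of 255 reads with both treatments. From 5.17% ± 0.38 to 20.8% ± 0.58 (SD, n = 2), the log2 change was 2.00 ± 0.09, with an adjusted p of 4.85e-05 in edgeR, and 2.62% of all tested uridines changed more. With TMM the change was 0.99, which was not called.

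In HCT116, U249 stopped 6.67% and 4.30% of reads in CMC- and 24.3% and 25.9% with CMC and Terminator (43 of 177 and 41 of 158 reads). The log2 change was 2.23 ± 0.21 (edgeR adjusted p = 1.63e-06), and 4.11% of all tested uridines changed more. In HCT116-shDKC1 it stopped 5.08% and 4.87% in CMC- and 25.2% and 26.9% with both treatments (36 of 143 and 63 of 234 reads), a log2 change of 2.40 ± 0.20 (edgeR adjusted p = 6.57e-07). The 6 treated libraries lay between 20.4% and 26.9%, and the 6 CMC- libraries between 4.30% and 6.67%. Treated and untreated libraries were thus separated in every line, with the direction within a replicate fixed by the listing. The treated knockdown libraries overlapped the treated HCT116 ones.

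**Figure D2:**
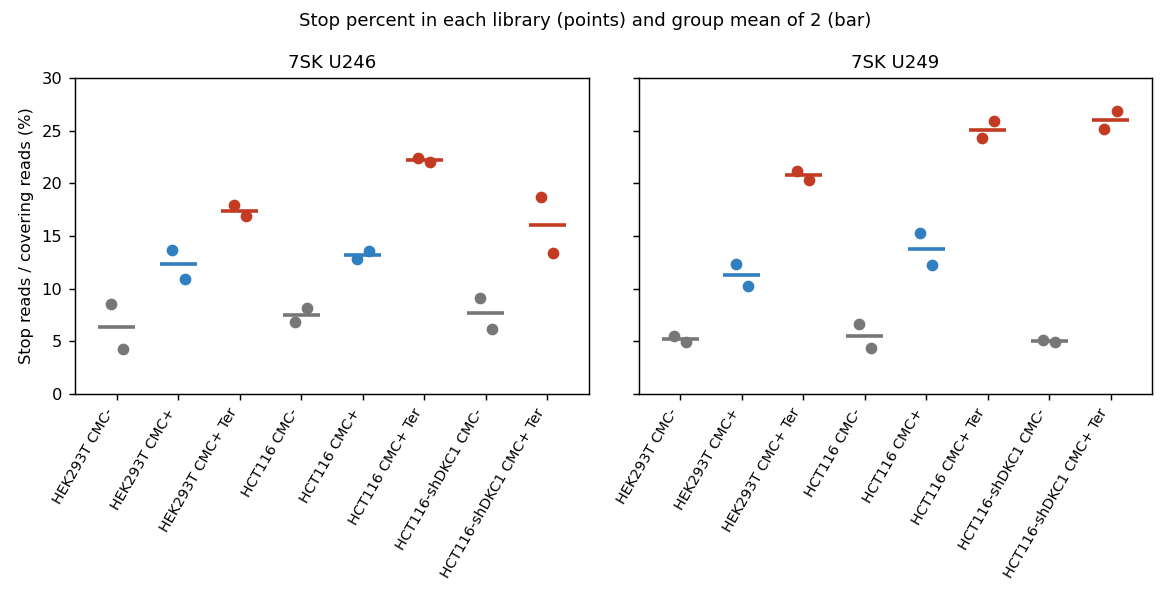
Stop percent (y axis) of 7SK U246 (left) and U249 (right) in each of the 16 libraries (points), with the mean of 2 replicates as a bar, grey for CMC-, blue for CMC+ and red for CMC+ with Terminator. At U249 all libraries with Terminator lie above 20%, while at U246 the knockdown libraries (18.8% and 13.4%) lie below the HCT116 ones (22.4% and 22%).

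U246, 3 bases upstream, was also called in all 3 lines, with a higher mean stop percent than U249 in each group of CMC- libraries. In HEK293T it stopped 8.55% and 4.20% of reads in CMC-, 13.7% and 10.9% with CMC, and 17.9% and 16.9% with CMC and Terminator, a log2 change of 1.48 ± 0.21 for the last against the first (edgeR adjusted p = 0.00503). In HCT116 it rose from 6.79% and 8.16% to 22.4% and 22%, by 1.52 ± 0.23 (edgeR adjusted p = 0.000119). In the knockdown it rose from 9.12% and 6.14% to 18.8% and 13.4%, by 1.07 ± 0.24 (edgeR adjusted p = 0.0034). DESeq2 did not call this change in the knockdown (DESeq2 adjusted p = 0.113). The knockdown call ended without CMC- replicate 2 or without treated replicate 1 of the knockdown, where the log2 change fell as low as 0.79, and the HEK293T call ended without replicate 2 of CMC- or of CMC+ with Terminator.

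The 2 bases between these uridines rose in both HCT116 lines as well. G248 stopped 1.40% ± 0.94 of reads in HCT116 CMC- and 9.07% ± 3.67 (SD, n = 2) with both treatments, a log2 change of 2.59 ± 0.34 beside 2.23 ± 0.21 at U249 (edgeR adjusted p of G248 = 3.55e-05). In the knockdown the change of G248 was 2.81 ± 0.33 (edgeR adjusted p = 1.71e-05). U247 rose from 2.53% and 3.12% to 8.33% and 12.1% in HCT116, by 1.82 ± 0.29, and from 3.28% and 2.75% to 7.92% and 11.2% in the knockdown, by 1.71 ± 0.28 (edgeR adjusted p = 0.000285 and 0.000425). U247 was not listed in the HEK293T Terminator tables. U245 was called in the knockdown alone (4.71% and 3.27% against 12.2% and 6.62%), and leaving out any 1 of the 4 knockdown libraries ended that call. In HEK293T U245 changed by 1.00 ± 0.32 without passing the test (edgeR adjusted p = 0.0794). The U247 and U111 calls of the knockdown also each ended when 1 of 2 single knockdown libraries was left out: CMC- replicate 2 or treated replicate 2 for U247, and replicate 1 of either for U111.

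**Figure D3:**
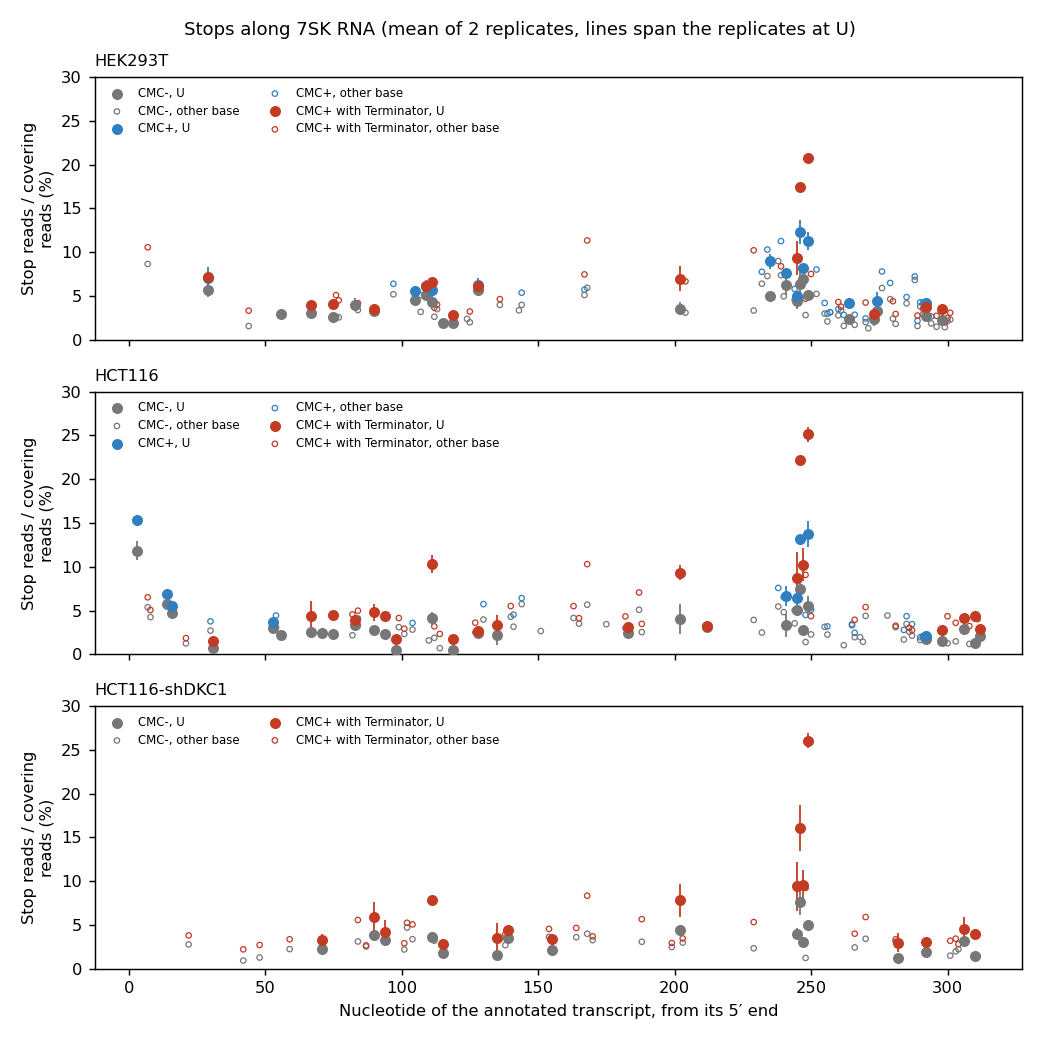
Stop percent (y axis, mean of 2 replicates) along 7SK (x axis, nucleotide) in HEK293T, HCT116 and HCT116-shDKC1, for positions listed in both replicates of a group; filled points are U, with lines spanning the replicates, and open points other bases. Stops with CMC and Terminator (red) peak at U246 and U249 in each panel, and no other U passes 12%, apart from U3 with CMC in HCT116.

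Elsewhere in 7SK, U111 rose in both HCT116 lines and U202 in wild-type HCT116. U111 stopped 4.88% and 3.39% in HCT116 CMC- and 9.26% and 11.3% with both treatments, a log2 change of 1.36 ± 0.21 (edgeR adjusted p = 0.00016), and in the knockdown 3.39% and 3.98% against 8.33% and 7.38%, a change of 1.05 ± 0.23 (edgeR adjusted p = 0.00229). In HEK293T its values of 6.30% and 7.02% stood against 4.55% and 4.14% in CMC-, without a call. U202 stopped 5.78% and 2.28% in HCT116 CMC- and 8.48% and 10.2% with both treatments, and its call ended without replicate 2 of either group. The non-uridine of 7SK with the highest stop in the treated wild-type libraries was A168, with 10.0% and 12.7% in HEK293T and 8.23% and 12.4% in HCT116. U29, with 7.50% and 6.86% in HEK293T against 6.42% and 4.89% in CMC-, was a high site that hardly changed.

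Next, the steps of the treatment were compared. With CMC alone, U249 was called in HCT116 only, and no other member uridine was. In the HCT116 tables without Terminator it stopped 7.53% and 4.28% of reads in CMC- and 15.3% and 12.3% with CMC, a log2 change of 1.27 ± 0.13 (edgeR adjusted p = 0.0127). The call depended on the replicate number as a block, since the adjusted p without it was 0.0959, and it also ended without CMC- replicate 2 or without CMC+ replicate 1 (fitted without the block). In HEK293T the change of U249 was 1.10 ± 0.11, with an adjusted p of 0.0606 in edgeR. A call in HCT116 and none in HEK293T does not show a difference between the lines, which was not tested. U246 changed by 0.94 ± 0.23 in HEK293T and by 0.81 ± 0.08 in HCT116 (edgeR adjusted p = 0.257 and 0.291). The SE of these changes in DESeq2 were larger, 0.52 and 0.54.

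Over the 5 RNAs, CMC alone gave 0 of 29 member uridines in HEK293T, where 3.39% of all tested uridines were called, and 1 of 56 (1.79%) in HCT116, where 4.45% were. At an unadjusted p under 0.05 edgeR held 2 member uridines in HEK293T, and DESeq2 called 0. There DESeq2 gave U249 of 7SK an adjusted p of 0.292. It gave none to U246 of 7SK, U36 of RMRP or U21 of RPPH1, so it could not call these. No member other base was called in either line (0 of 78 and 0 of 212), against 0.122% and 0.528% of all other bases. The largest of these uncalled changes in HCT116 were in RMRP, at most 1.29 for a uridine.

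Adding Terminator to CMC in HEK293T raised the stop percent of U249 from 12.3% and 10.3% to 21.2% and 20.4%. This change, 0.90 ± 0.08 with an adjusted p of 0.0217 in edgeR, passed the test and missed the fold of 2. It no longer passed without any 1 of the 4 CMC+ libraries, with or without Terminator (edgeR adjusted p from 0.0823 to 1), or with TMM (0.38, edgeR adjusted p = 0.384). For U246 the added change was 0.54 ± 0.20 (edgeR adjusted p = 0.45). No member uridine of 29 was called, 3 had an unadjusted p under 0.05 in edgeR and DESeq2 called 0, against 1.25% of all tested uridines called. DESeq2 gave no adjusted p here to U249 and U246 of 7SK, U36 of RMRP or U21 of RPPH1, so it could not call these. Of other bases, 1 of 78 was called, A11 of RMRP, against 0.668% of all. A11 went from 6.11% ± 0.95 with CMC to 13.1% ± 1.21 (SD, n = 2) with both treatments, a change of 1.09 ± 0.08 (edgeR adjusted p = 0.0068), and its call ended without replicate 2 of either group.

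RMRP, the RNA of RNase MRP, had its changes spread along the molecule and not limited to uridines. U36 stopped 2.92% and 3.0% of reads in HEK293T CMC-, 4.82% and 3.87% with CMC, and 6.83% and 7.48% with CMC and Terminator. In HCT116 they were 2.41% and 2.89% in CMC- and 10.1% and 9.60% with both agents, and in the tables without Terminator 2.48% and 2.95% in CMC- and 3.23% and 3.29% with CMC. In the knockdown they were 2.77% and 3.02% against 7.53% and 7.46%. The 2 treated libraries lay above the 2 CMC- libraries in each line, a direction that the listing fixed within each replicate. The log2 changes were 1.27 ± 0.14, 1.87 ± 0.22 and 1.35 ± 0.22 (edgeR adjusted p = 0.00157, 1.53e-05 and 0.000776).

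Beside U36, 4 uridines of RMRP were called in HCT116. U64 rose from 3.70% and 1.14% to 8.96% and 6.90%, by 1.80 ± 0.35 in log2 terms. U121 rose from 4.21% and 2.66% to 8.38% and 9.01%, by 1.37 ± 0.33, and U21 from 3.85% and 4.19% to 10.8% and 7.59%, by 1.2 ± 0.29. U24 rose from 1.66% and 1.84% to 4.49% and 4.83%, by 1.35 ± 0.38. All but U24 were called in the knockdown too, where U121 stopped 12.0% and 8.5% against 2.00% and 4.33% and U57 (7.03% and 4.49% against 1.70% and 2.82%) joined them. Except for U36, each of the HCT116 calls ended when a single HCT116 library was left out: for U64 CMC- replicate 2, for U121 replicate 2 of either group, for U21 treated replicate 1, and for U24 CMC- replicate 1 or either treated replicate. In the knockdown this held for U21 (CMC- replicate 1), U57 (replicate 1 of either group) and U64 (CMC- replicate 1 or either treated replicate), not for U36 and U121. The HEK293T call of U36 ended without replicate 2 of CMC- or of CMC+ with Terminator. With DESeq2 U36 was called in HCT116 and not in HEK293T or the knockdown (DESeq2 adjusted p = 0.116 and 0.0626).

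**Figure D4:**
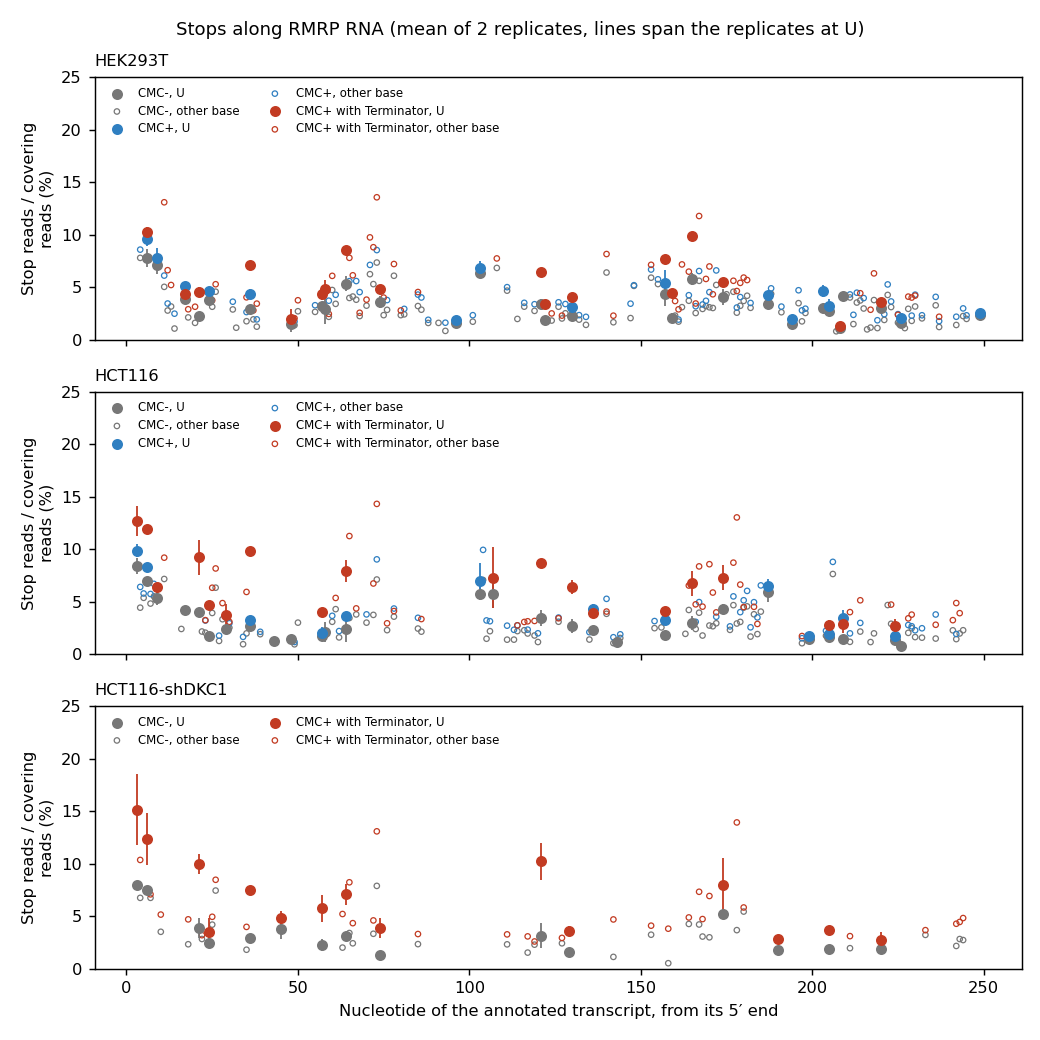
Stop percent (y axis, mean of 2 replicates) along RMRP (x axis, nucleotide) in HEK293T, HCT116 and HCT116-shDKC1, drawn as for 7SK. Red points of both kinds, uridines (filled) and other bases (open), rise above grey ones along the RNA, and the highest treated values include G73 (13.9% and 13.2% in HEK293T, 15.8% and 12.8% in HCT116), which is no uridine.

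Among other bases of RMRP, G178 had the largest change in HCT116, from 2.93% ± 0.64 to 13.03% ± 0.99 (SD, n = 2), a log2 change of 2.14 ± 0.24 (edgeR adjusted p = 9.6e-06), and changed by 1.89 ± 0.24 in the knockdown. G170 and A65 were called in all 3 lines, as was C35, which adjoins U36. Each of these calls, apart from that of G170 in HCT116, ended when 1 or more single libraries of its own groups were left out, and those of C35 in HEK293T and the knockdown ended without any 1 of the 4. Without treated replicate 2 the change of A65 in HEK293T was 0.56. In HEK293T 8 of 22 tested other bases of RMRP were called, where 8.76% of all other bases were, beside 1 of 5 uridines (17.8% of all). In HCT116 the counts were 6 of 13 other bases (23.5% of all) and 5 of 10 uridines (27.0% of all). The stop percent of U3 and U6, next to the 5′ end, was high in all groups: U6 stopped 6.91% and 8.69% in HEK293T CMC- and 9.77% and 10.7% with both treatments, and 7.40% and 6.52% against 12.3% and 11.5% in HCT116. U3 reached 14.1% and 11.2% in treated HCT116 from 7.63% and 9.18%. In HEK293T the other high uridines were U165 (9.60% and 10.1% treated, 6.36% and 5.20% in CMC-), U64 (8.22% and 8.91% treated, 6.04% and 4.63% in CMC-) and U157 (8.08% and 7.34% treated, 5.54% and 3.20% in CMC-). U157 passed the test with a fold under 2 (0.85 ± 0.17, edgeR adjusted p = 0.0412), and U165 and U64 were not tested there.

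RPPH1, the RNA of RNase P, was the most thinly covered, and 3 of its uridines were tested in HEK293T, 2 in the HCT116 Terminator tables and 0 in the HCT116 tables without Terminator. U21 stopped 8.18% and 3.81% in HEK293T CMC-, 8.20% and 6.06% with CMC and 10.5% and 13.7% with CMC and Terminator, a log2 change of 1.14 ± 0.31 with an adjusted p of 0.0495 in edgeR. That call ended without replicate 2 of CMC- or of CMC+ with Terminator, with TMM (0.69) and with no filter on low counts (edgeR adjusted p = 0.0577). In HCT116 the same base stopped 12.2% and 7.87% in CMC- and 13.3% and 12.7% with both treatments, a change of 0.40 ± 0.33 (edgeR adjusted p = 0.467). Its neighbour G22 was called in HEK293T as well (1.03 ± 0.13, edgeR adjusted p = 0.0353).

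Higher stops in RPPH1 were recorded at bases that were not tested with CMC and Terminator, apart from U228 in HEK293T. U281 stopped 18.5% and 23.1% of reads in HCT116 with both treatments against 2.63% and 3.23% in CMC-, and 10.9% and 9.18% against 2.07% and 4.96% in HEK293T. U68 stopped 14.6% and 12.5% in treated HCT116 against 3.03% and 3.23%, and 16.2% and 10.0% in the treated knockdown against 4.82% and 7.81%. U132 stopped 23.8% and 16.1% in treated HCT116, but its CMC- libraries were at 17.9% and 5.56%, so that the groups overlapped. In HEK293T U111 stopped 14.5% and 13.4% against 6.03% and 5.36%, U137 14.3% and 8.52% against 5.97% and 5.58%, and U228, which was not called, 14.4% and 8.33% against 8.62% and 6.13%. C157, which is no uridine, stopped 14.6% and 25.5% in treated HCT116 and 14.5% and 17.4% in CMC-, and A294 11.2% and 16.9% in treated HEK293T against 3.70% and 8.05%. These values rest on few reads, at U281 on 5 of 27 and 6 of 26 in treated HCT116.

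The 7SL genes were the deepest of the 5 RNAs, and their changes were small. At U142, RN7SL1 stopped 1.24% and 1.27% of reads in HCT116 CMC- and 2.97% and 2.8% with CMC and Terminator, and RN7SL2 1.24% and 1.27% against 2.93% and 2.84%. The log2 changes were 1.19 ± 0.14 and 1.19 ± 0.14 (edgeR adjusted p = 1.26e-05 and 1.46e-05). In the knockdown RN7SL1 U142 rose from 1.37% and 1.39% to 2.89% and 2.37%, a change of 0.90 ± 0.14 that passed the test (edgeR adjusted p = 0.000176) and missed the fold of 2. In HEK293T, U142 stopped 2.16% and 2.03% against 1.53% and 1.58% in CMC-. The neighbouring C143 was called in both HCT116 lines, from 1.39% and 1.25% to 2.82% and 2.74% in wild type (RN7SL1 143), so the rise at this place was not particular to the uridine.

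U95 had the highest mean stop of the 7SL uridines listed in both replicates with CMC and Terminator in each line. In RN7SL1 it stopped 4.66% and 3.77% in HEK293T CMC- and 5.49% and 5.79% with both treatments, and 6.2% and 5.32% against 7.72% and 8.20% in HCT116. Its high value was thus present without CMC in both lines. The highest other base was A173, which in RN7SL1 stopped 4.81% and 4.95% in HEK293T CMC- and 6.37% and 7.86% when treated. The remaining 7SL uridines with the highest treated values lay between 2.49% and 4.26%: U97 and U134 in HCT116 and U171, U218 and U223 in HEK293T, with U47 of RN7SL1 at 2.86% and 2.93% in treated HCT116 against 2.63% and 2.79% in CMC-. None of these was called.

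The last comparison asked whether knockdown of DKC1 altered the response of these RNAs to CMC and Terminator. No difference was detected: 0 of 53 member uridines had a called interaction in edgeR and 0 had an unadjusted p under 0.05. Of all 9660 tested uridines, 0.0311% were called. DESeq2 called 0 too, but it gave several of them no adjusted p and so could not call them. These included U249 and U246 of 7SK, U36 of RMRP, U142 of both 7SL genes and U21 of RPPH1. The median interaction was -0.05 for the member uridines and -0.08 for all uridines. For U249 of 7SK the response was larger in the knockdown by 0.17 ± 0.31 on the log2 scale (edgeR adjusted p = 1), which turned to -0.18 without HCT116 CMC- replicate 1. For U246 it was -0.46 ± 0.33 and for RMRP U36 -0.52 ± 0.31. A missing call is no proof of equal response, and how far DKC1 was lowered is not known from these libraries. The test also held only uridines listed in every Terminator table of HCT116 and its knockdown. A uridine whose treated stop percent fell below CMC- in the knockdown would not be listed there, so such a loss could not be detected.

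**Figure D5:**
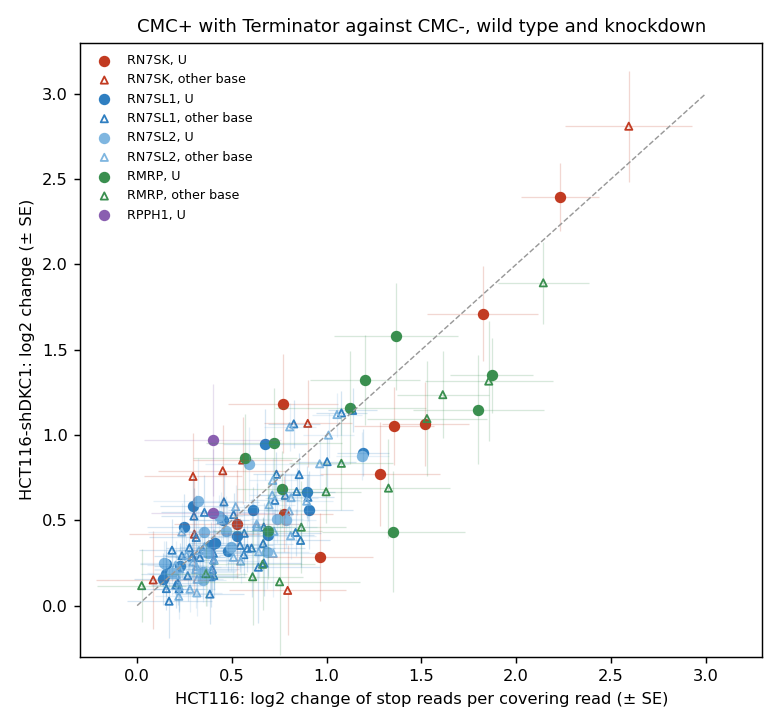
The log2 change (± SE) of stop reads per covering read, CMC+ with Terminator against CMC-, in HCT116 (x axis) and HCT116-shDKC1 (y axis) for each tested position of the 5 RNAs; circles are U, triangles other bases, and the dashed line marks equal change. 7SK U249 (2.23 and 2.40) lies near the line, and RMRP U36 (1.87 and 1.35) below it by less than 2 SE of the difference.

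The levels of the RNAs were compared as reads covering a position, in RPM of the library total and averaged over the positions listed in all tables of a fit. In HEK293T CMC- the order was RN7SL2 (62.8 and 63.9), RN7SL1 (58.2 and 57.7), RMRP (20.2 and 31.1), RN7SK (12.0 and 17.4) and RPPH1 (6.14 and 10.4). In HCT116 CMC- it was RN7SL1 (143 and 158) and RN7SL2 (141 and 160), which did not differ beyond their spread, then RMRP (13.2 and 15.3) and RN7SK (12.8 and 15.4), which overlapped too, and RPPH1 (3.69 and 3.97). The knockdown CMC- libraries held 121.1 and 159 for RN7SL1, 120 and 159 for RN7SL2, 12.1 and 14.9 for RMRP, 12.2 and 16.5 for RN7SK and 3.15 and 4.29 for RPPH1. Values of the 2 wild-type lines come from tables that treat repeated RNAs differently and were not compared. In bulk RNA, fewer cells that hold an RNA and less of it per cell cannot be told apart.

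Against wild-type HCT116, the knockdown changed the covering reads of 0 of the 5 RNAs in edgeR (0 at an unadjusted p under 0.05, and 0 called by DESeq2), while 0.695% of 2157 genes were called. With the replicate number as a block, again 0 were called, and RN7SL1 and RN7SL2 had unadjusted p values of 0.0334 and 0.0256 (edgeR adjusted p = 0.204 and 0.176). The log2 differences (edgeR adjusted p from 0.943 to 0.995) were -0.02 ± 0.13 for RN7SK, -0.16 ± 0.15 for RN7SL1, -0.16 ± 0.15 for RN7SL2, -0.13 ± 0.13 for RMRP and -0.10 ± 0.16 for RPPH1. With CMC and Terminator, covering reads (RPM) changed too, and not in the same direction in every line. Those of 7SK fell in HCT116 from 12.8 and 15.4 to 8.78 and 8.46, and those of RMRP from 13.2 and 15.3 to 7.67 and 8.20, as their stops per covering read rose. The part of this fall in the rise of the stop percent was not tested, but of the uridines called in both HCT116 lines only U249 stayed called in both when stop reads were scaled to library totals (1.55 ± 0.25 in HCT116 and 1.68 ± 0.24 in the knockdown), whereas U246 then changed by 0.33 ± 0.24 and -0.24 ± 0.25.

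The messenger RNAs of the partner proteins were too shallow for these tests. Of 7 genes of the 7SK particle and P-TEFb, 6 were listed with 68 uridines, of 8 genes of the signal recognition particle and its receptor 8 with 201, and of 11 protein genes of RNase P and MRP 9 with 52. A single uridine among them was tested, in SRP14, which encodes a subunit of the particle's Alu domain. It changed by 0.51 ± 0.35 in HCT116 and 0.14 ± 0.41 in the knockdown (edgeR adjusted p = 0.393 and 0.83), without a call. HEXIM1 and MEPCE, of the 7SK particle, were listed at 45 and 91 positions and POP7, of RNase P and MRP, at 113, and none of these was tested.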

How the data were processed

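Stops were measured in 16 libraries of 8 groups, deposited as 10 tables that each set a treated library beside its CMC- control. The submitters' processing notes name cutadapt 2.8, STAR and the build hg38; the STAR version is not given in the sources used here. Stop and covering reads are whole counts in the deposited Terminator tables of HCT116 and HCT116-shDKC1, and fractional expected counts in the deposited HEK293T tables and HCT116 tables without Terminator. RPM of the stop reads is deposited too, and the count divided by RPM gave the library total. How reads with several matches were shared is not given in the sources used here. No per-sample column of the tables was left unmapped.

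Expected counts were rounded and fitted over all positions listed in every table of a fit with edgeR 4.0.16 in R 4.3.3, with covering reads as offset, a minimum of 10 stop reads in 2 or more libraries, and Benjamini-Hochberg adjustment over all tested positions. HEK293T controls, equal in both kinds of table at over 99% of positions, were read from the Terminator tables. Printed CMC- values of HCT116 come from its Terminator tables where the position is listed there, otherwise from those without Terminator. The replicate number was a block, because the series design describes a replicate as a CMC- and CMC+ pair. In the fit of HCT116 and its knockdown both lines shared the block, although the labels pair no wild-type library with a knockdown one. Without it, 0 interactions of member uridines were called as well. Deviations of same-numbered libraries correlated at 0.06 to 0.34 in HEK293T and 0.09 to 0.33 in the Terminator tables of HCT116 and its knockdown. In the HCT116 tables without Terminator the correlation was 0.57. Levels used covering reads of CMC- libraries summed per gene, with TMM and no block. The tests were also run on simulated counts with a fixed spread and no listing rule, which cannot check their error rates in the listed data. DESeq2 1.42.0, other scalings, no filter and leaving out each library were the alternatives. Named positions are every uridine called, up to 4 uridines per gene with the highest treated stop in each wild-type line and the highest other base; further other bases were named after their values were seen. The members and lists were chosen with earlier results of these data known. SD values reflect the spread between libraries, SE values of edgeR can be too small, and the labels name no molecular identifiers.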

Additional observations from a re-analysis of the deposited data

Results flagged for a closer look

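Covering reads (RPM) moved in opposite directions with CMC and Terminator in HEK293T and in HCT116 for 4 of the 5 RNAs, in both replicates of each line. The difference between the lines was not tested, and the tables of the lines count repeated RNAs differently. As the mean log2 ratio of CMC+ with Terminator over CMC-, RPPH1 gave 0.46 in HEK293T, -0.71 in HCT116 and -0.59 in HCT116-shDKC1. RMRP gave 0.16, -0.85 and -0.75 in the same order. RN7SL1 gave 0.45, -0.17 and -0.10. RN7SL2 gave 0.41 in HEK293T and -0.14 in HCT116, while its knockdown replicates went opposite ways (-0.18 and 0.04). For 7SK both replicates fell in each line, in HEK293T by 0.02 and 0.29 on the log2 scale.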

How the results depend on the processing

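Scaling mattered most. With stop reads scaled to library totals in place of covering reads, the called member uridines with CMC and Terminator against CMC- numbered 10 in HEK293T (against 4), 1 in HCT116 (against 12) and 2 in HCT116-shDKC1 (against 10), and those of Terminator added to CMC in HEK293T numbered 3 (against 0). With TMM each of the 3 lines had 1 called higher, which was 7SK U249 in HCT116 and the knockdown and RN7SL1 U19 (1.01) in HEK293T, where U249 lost its call (0.99). In HCT116 TMM also called RMRP U3 (-1.30) and 7SK U245 (-1.06) lower (edgeR adjusted p = 0.00257 and 0.0325). These scalings moved the median log2 change of all uridines from 0.70 to 0.24 and -0.24 in HCT116 and from 0.64 to 0.76 and -0.04 in HEK293T, and relative to that median 7SK U249 stood higher by 1.53, 1.31 and 1.31 in HCT116 and by 1.36, 1.03 and 1.03 in HEK293T. U246 stood above it by 0.82, 0.089 and 0.088 in HCT116 and by 0.45, -0.41 and -0.41 in the knockdown, and RMRP U36 by 1.17, 0.55 and 0.55 in HCT116. The direction reversed with library totals at RMRP U21 in HCT116 (-0.13) and at 7SK U245 (-0.26) and U246 (-0.24) in the knockdown. With TMM it reversed in HCT116 at RMRP A167 (-0.14), U21 (-0.61), U24 (-0.43) and C35 (-0.14) and 7SK U202 (-0.24) and U246 (-0.15), in the knockdown at RMRP U21 (-0.18), C35 (-0.38), U36 (-0.10), U57 (-0.093) and U64 (-0.092) and 7SK A168 (-0.15), U245 (-0.70) and U246 (-0.69), and for Terminator added to CMC at 7SK U246 (-0.10). The interaction at U249 ran from -0.18 without HCT116 CMC- replicate 1 to 0.52 without HCT116 CMC- replicate 2. The cause of these changes was not tested.

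DESeq2 called 2 member uridines in HEK293T and 3 in the knockdown with CMC and Terminator, and 0 with CMC alone in HCT116 with either scaling (with covering reads, chosen after seeing the data, and with its own size factors). With its own size factors it gave 7SK U249 no adjusted p, and in HEK293T with CMC and Terminator it gave RPPH1 U21 none. With CMC and Terminator DESeq2 did not call 7SK U202 or RMRP U21, U24 and U121 in HCT116. In the knockdown it did not call 7SK U111, U245, U246 and U247 or RMRP U21, U36, U57 and U64. Without the replicate block, CMC alone in HCT116 gave 0 (against 1), and no other count of member uridines moved beyond 1.5 times. For levels, the replicate block raised the genes called from 15 to 157, with 0 members in either. Leaving out 1 library at a time gave 0 to 1 for CMC alone in HEK293T, 1 to 4 in HEK293T, 9 to 12 in HCT116 and 5 to 13 in the knockdown with CMC and Terminator, and 0 to 1 for CMC alone in HCT116, where it was run without the block, a choice made after seeing the data. Shallow coverage limits RPPH1 most, with 2 or 3 uridines tested.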
